A study of Rattus norvegicus with 5 samples.

Results

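Collagen chain genes were examined in mesenteric fat that surrounds the pancreas of male Wistar rats. They were taken as every gene whose probe sets carry 1 symbol of the form Col, number, a, number, which gave 41 genes on 58 probe sets, out of 14217 genes named by a single symbol on the array. Where a gene had several probe sets, the one with the highest mean over the 5 arrays stood for it and the others served as a check. The chains fall into 11 fibrillar, 5 basement membrane (type IV) and 25 other collagens. The tissue came from 3 rats on standard chow, which supplied 8% of calories as fat (the lean group), and 2 rats on a cafeteria diet, which supplied 66% (the obese group). Each diet lasted 30 days, and the rats were 7 weeks old. Each of the 5 Affymetrix arrays carried the RNA of 1 independent sample, and no genotype or drug was varied. Values are log2 expression levels, so a difference of 1 is a doubling, and differences are given as cafeteria minus standard.

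Collagens are secreted proteins whose chains wind around each other into a rigid helix. Fibrillar collagens (types I, II, III, V and XI among them) assemble into the fibres that give tissue its tensile strength. Type IV collagen forms the sheet-like network of basement membranes, which surround every fat cell, vessel and nerve fibre. The remaining types decorate fibrils, form beaded filaments or short networks, anchor membranes or span the cell surface. In fat, collagen is made mainly by fibroblast-like progenitor cells, and fat cells and vessel cells make much of the type IV network.

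The arrays had medians between 5.70 and 5.75, and the pairwise correlation was 0.976 to 0.989 over the probe sets tested. All 8 adipocyte markers passed the filter on dim probe sets, which kept those with a mean above 4.28, and so did Pdgfra and Dpt, markers of fat fibroblasts. The acinar cell list of the pancreas had a summed log2 level over 15 genes of 124 on the highest standard array, replicate 1, against 66.5 on the lowest standard array and 68.9 to 71.0 on the cafeteria arrays. Its trypsinogen gene Prss1 read 9.75 on standard replicate 1 and at most 4.35 elsewhere, whereas Prss2 was below the filter. Not every member was high on that array alone. Cpa1 read 7.38 and 9.07 on the cafeteria arrays and 9.37, 5.34 and 5.94 on the standard arrays. Cela3b read 9.52 and 6.46 against 9.86, 9.70 and 8.88. Cpa1 and Cela3b were picked after their values were seen. The smooth muscle and pericyte list ranged over its 10 genes from 80.9 to 97.9 in standard samples, highest on replicate 3, and from 83.7 to 83.9 in cafeteria samples. In bulk tissue, fewer cells of a type and less RNA per cell cannot be told apart.

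The sequences shown here lie just upstream of the 2 type IV gene pairs that lie head to head, whose chains pair in the protein, and of Col5a3 and Col7a1, 2 of the 3 genes with an unadjusted p under 0.05. For the other of these, Col8a1, the promoter window lies inside the annotated gene and is not shown. They come from RefSeq promoter windows on the rat build GRCr8, which were found for 32 of the 41 genes, and only bases before the first annotated start of a gene are printed, on the strand of the gene. The stretch between Col4a2 and Col4a1 is chr16:84885521-84885596, plus strand. That before Col4a5 is chrX:109907109-109907250, plus strand, and that before Col4a6 is chrX:109905988-109906194, minus strand. The stretch before Col5a3 is chr8:27626003-27626198, minus strand, and that before Col7a1 is chr8:118483114-118483363, plus strand. Capitals mark matches, on either strand, to the GC box GGGCGG, the CCAAT box CCAAT, the TATA box TATAAA, the Smad box CAGAC or the AP-1 site TGANTCA.
Col4a2 and Col4a1: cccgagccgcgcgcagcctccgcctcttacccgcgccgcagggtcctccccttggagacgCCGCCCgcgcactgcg
Col4a5: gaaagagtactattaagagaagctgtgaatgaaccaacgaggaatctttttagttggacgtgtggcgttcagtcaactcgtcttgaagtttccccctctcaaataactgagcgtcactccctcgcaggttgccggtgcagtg
Col4a6: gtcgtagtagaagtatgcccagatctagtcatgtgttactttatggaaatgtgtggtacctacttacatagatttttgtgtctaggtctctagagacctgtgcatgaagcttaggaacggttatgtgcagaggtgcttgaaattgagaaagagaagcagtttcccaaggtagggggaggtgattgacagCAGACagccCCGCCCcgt
Col5a3: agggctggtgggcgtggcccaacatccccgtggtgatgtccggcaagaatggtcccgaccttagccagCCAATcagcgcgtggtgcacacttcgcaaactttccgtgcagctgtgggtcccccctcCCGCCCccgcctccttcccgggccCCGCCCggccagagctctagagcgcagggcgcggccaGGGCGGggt
Col7a1: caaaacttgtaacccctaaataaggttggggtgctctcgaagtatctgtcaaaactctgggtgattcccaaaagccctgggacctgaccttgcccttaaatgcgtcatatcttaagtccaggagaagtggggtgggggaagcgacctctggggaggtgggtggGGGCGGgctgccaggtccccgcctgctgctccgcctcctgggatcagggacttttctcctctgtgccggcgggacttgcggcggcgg

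The 76 bases that separate the starts of Col4a2 and Col4a1 were 78.9% G and C and held 1 GC box, a motif found in 18.1% of all promoter windows over the same stretch. The 142 bases before Col4a5 held none of the 5 motifs and were 47.9% G and C. The 207 bases before Col4a6 held 1 GC box (25.2% of all windows over that stretch) and 1 Smad box (37.5%), and the annotated starts of Col4a5 and Col4a6 lie 1263 bases apart. The 196 bases before Col5a3 held 3 GC boxes, present in 23.5% of windows, and 1 CCAAT box, present in 28.3%, while the 250 bases before Col7a1 held 1 GC box, present in 30.5%. Over the 250 bases before the start, 18 of the 32 collagen genes with a window (56.2%) held a GC box, against 32.4% of 27457 genes. The CCAAT box was in 9 collagen windows (28.1%, against 34.3% of all genes), the Smad box in 11 (34.4% against 42.8%), the TATA box in 4 (12.5% against 13.1%) and the AP-1 site in 1 (3.12% against 6.36%). The GC box letters are themselves rich in G and C. A match describes letters only. Several members also sit side by side among protein-coding genes: Col3a1 next to Col5a2, Col6a1 next to Col6a2, Col6a6 next to Col6a5, and Col9a1 next to Col19a1.

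Of the 41 genes, 29 passed the filter: 8 fibrillar, 4 type IV and 17 other collagens. The 12 below it had means between 2.94 and 4.05, all under the filter level of 4.28, and were not tested. Col4a3, Col6a4, Col21a1 and Col28a1 were not analysed here. The 12 were the cartilage collagen gene Col2a1 with Col11a1 and Col24a1 among fibrillar chains, Col4a4, a type IV chain, and Col9a1, Col9a3, Col10a1, Col13a1, Col19a1, Col20a1, Col22a1 and Col25a1. Just inside the filter lay Col26a1, with a mean of 4.46, and Col11a2, with 4.50. Just outside lay Col4a4, with 4.05. Differences among the untested genes ran from -0.29 (Col13a1) to 0.24 (Col22a1).

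The question was whether collagen transcripts in this depot differed between the diets, and whether fibrillar, basement membrane and other chains did so alike. Most tested chains read slightly higher in cafeteria samples: 23 of 29 had a higher mean and 6 a lower one. The median difference was 0.16, against 0.00 (-0.0027) over all 11509 genes tested. Both cafeteria arrays lay above all 3 standard arrays for 9 of the 29 (31.03%), against 14.7% of all genes, and below them for 1 of the 29, against 14.7% of all genes. After adjustment for the whole array (limma, Benjamini-Hochberg, threshold 0.05), 0 collagen genes were called, as were 0 of the 21729 probe sets (0%). The smallest adjusted p of a collagen gene was 0.222. At an unadjusted p under 0.05 there were 3 higher collagen genes, against 6.73% of all genes, and 0 lower ones, against 6.88%. A linear model without moderated variance gave 2 genes, and the share of all genes was not taken for it. Without cafeteria replicate 1 there were 4 higher and 4 lower collagen genes at that threshold, against 9.41% and 11.4% of all genes. Without cafeteria replicate 2 there were 9 higher and 0 lower, against 7.73% and 7.91%. With standard replicate 1 left out, the cafeteria arrays lay above the rest for 10 genes, against 18.3% of all genes. Leaving out an array can only keep or raise the count of genes without overlap. Without cafeteria replicate 2 the count was 20, against 29.2% of all genes, and 3 genes lay below, against 27.4%. Without cafeteria replicate 1 it was 12, against 29.9%, and the number below went from 1 to 6, against 31.7%.

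**Figure D1:**
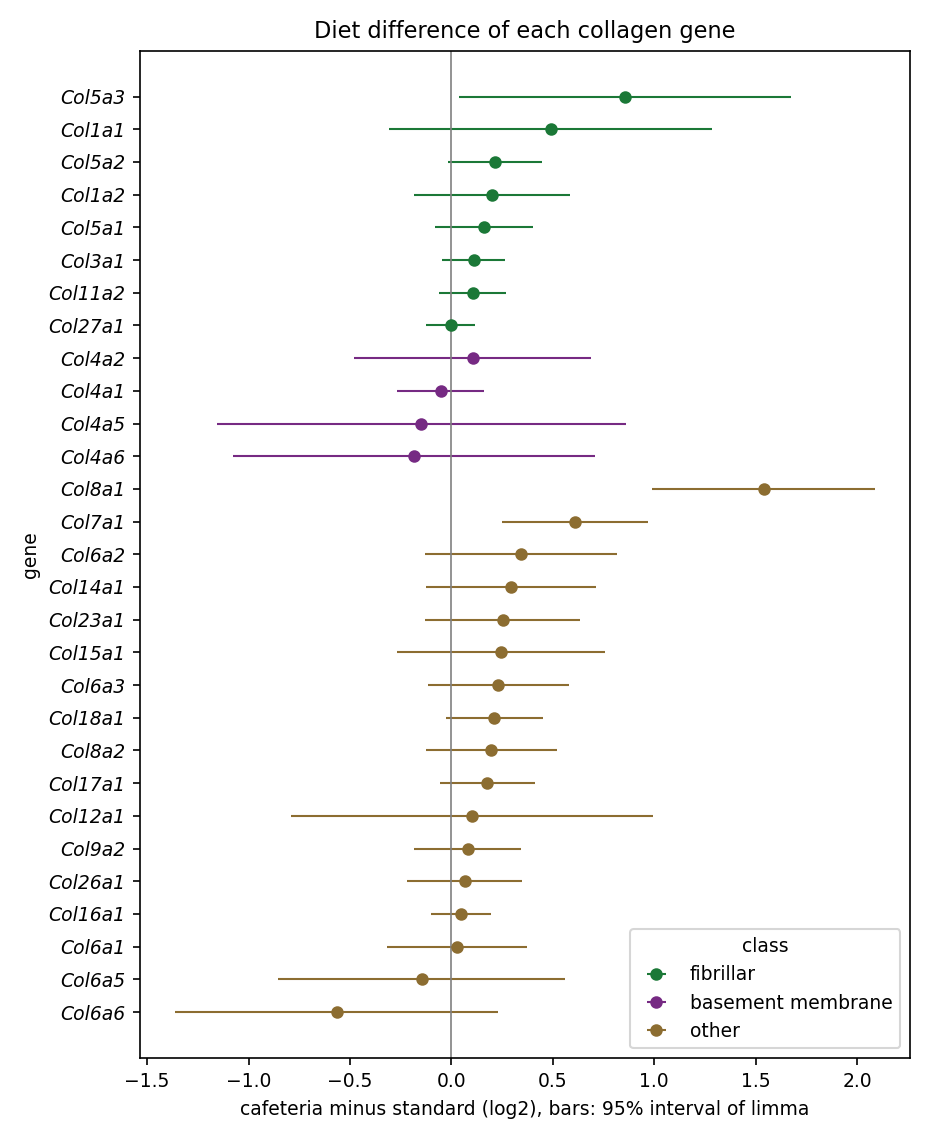
Cafeteria minus standard difference (log2, horizontal axis) of each of the 29 collagen genes tested, coloured by class. Points are the limma estimates and bars their 95% intervals from 2 cafeteria and 3 standard arrays. Col8a1 at 1.54 lies farthest to the right, and most points of the fibrillar and other classes lie slightly right of 0, while the 4 type IV genes lie on both sides of it.

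Among the fibrillar chains, 7 of 8 had a higher mean in cafeteria samples, with a median difference of 0.18 and a range of -0.0031 to 0.86. Col5a3, which encodes a chain of type V collagen, the type that starts fibrils, read 10.69 and 11.15 on the cafeteria arrays and 9.56, 10.25 and 10.39 on the standard arrays. The cafeteria arrays did not overlap the standard ones, and standard replicate 1 was the lowest of all. The difference was 0.86 ± 0.31 (SE), or 1.81-fold (limma, unadjusted p = 0.0435, adjusted p = 0.376), and 0.60 without standard replicate 1. Acinar transcripts were high on that array, and their part in the difference was not tested.

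Col5a2, a second type V chain, read 12.28 and 12.09 in cafeteria samples against 12.04, 11.98 and 11.89 in standard samples. The diets did not overlap. The difference was 0.22 ± 0.09 (limma, adjusted p = 0.416), or 0.12 with cafeteria replicate 1 left out and 0.31 with cafeteria replicate 2 left out. The gene's other probe set gave 0.24 ± 0.06, again without overlap. Col5a1, the chain that most type V molecules contain, read 9.89 and 10.14 in cafeteria samples and 9.83, 9.91 and 9.84 in standard samples, so the diets overlapped, with a difference of 0.16 ± 0.09. Leaving out cafeteria replicate 1 gave 0.28, and leaving out cafeteria replicate 2 gave 0.04 (0.0376). Its dimmer probe set gave 0.30 ± 0.08 with no overlap (limma, adjusted p = 0.315). All 3 type V chains thus had a higher cafeteria mean on each of their tested probe sets.

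Type I and type III collagens are the main fibres of connective tissue. Col1a1, which encodes the alpha 1 chain of type I, read 12.06 and 11.56 in cafeteria samples and 10.86, 11.66 and 11.44 in standard samples. Cafeteria replicate 1 was highest, standard replicate 1 lowest, and the diets overlapped. The difference was 0.49 ± 0.30, with a 95% interval of -0.31 to 1.29 (limma, adjusted p = 0.507). It was 0.26 without standard replicate 1 and 0.24 without cafeteria replicate 1. A second Col1a1 probe set gave 0.35 ± 0.12, with both cafeteria arrays above the standard ones.

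Its partner chain Col1a2 read 12.82 and 12.43 in cafeteria samples and 12.51, 12.46 and 12.29 in standard samples. Only cafeteria replicate 1 stood above the standard arrays. The difference of 0.20 ± 0.14 (limma, adjusted p = 0.539) became 0.0078 without cafeteria replicate 1. Standard replicate 1 deviated by -0.66 from the gene's mean for Col1a1 and by 0.01 (0.0104) for Col1a2, so these probe sets did not follow each other there. The second Col1a1 probe set read 10.03 on that array against its mean of 10.23, and was lowest on standard replicate 3, at 10.01. The low Col1a1 value thus depended on the probe set. Col3a1, the type III chain, read 13.30 and 13.23 against 13.17, 13.20 and 13.11, without overlap. The difference was only 0.11 ± 0.06, or 1.08-fold (limma, adjusted p = 0.493). Of the minor fibrillar chains, Col11a2 differed by 0.10 ± 0.06 at levels of 4.44 to 4.63. Col27a1 read 5.59 on all 3 standard arrays and differed by -0.0031.

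**Figure D2:**
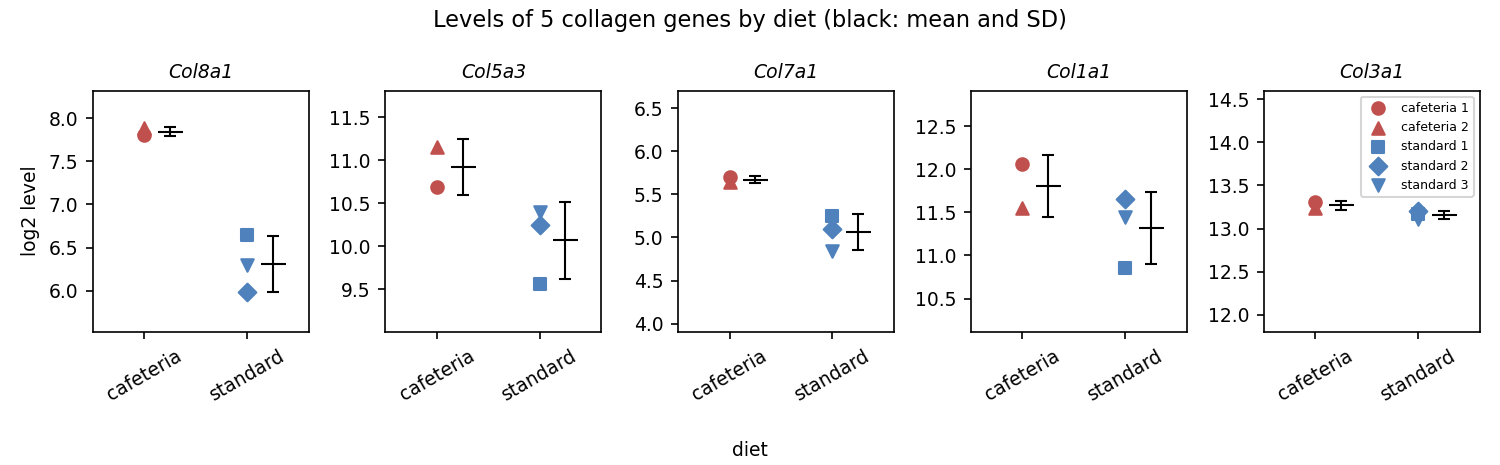
Log2 levels (vertical axes, all spanning the same range) of Col8a1, Col5a3, Col7a1, Col1a1 and Col3a1 on the 2 cafeteria and 3 standard arrays, with the mean and SD of each diet in black. Both cafeteria arrays lie above all standard arrays for all but Col1a1, where 11.56 in cafeteria replicate 2 lies below 11.66 in standard replicate 2.

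Among the type IV chains, no gene separated the diets. Of all genes, 14.7% lay above and 14.7% below without overlap, and 4 genes are too few to set against those shares. The 4 differences ran from -0.19 to 0.11, with 1 higher and 3 lower means and a median of -0.10. Col4a1, which with Col4a2 forms the common network of vessel and fat cell basement membranes, read 11.89 and 12.07 in cafeteria samples and 11.97, 12.04 and 12.09 in standard samples. The diets overlapped, although cafeteria replicate 1 was the lowest array, with a difference of -0.05 ± 0.08 (-0.0531; 95% interval -0.27 to 0.16; limma, adjusted p = 0.760). The second Col4a1 probe set gave 0.22 ± 0.14, so the sign depended on the probe set, the one case of 12 genes with several tested probe sets. Col4a2 read 10.98 and 11.13 against 10.55, 11.15 and 11.14. Standard replicate 1 was the low array, the difference was 0.11 ± 0.22 (limma, adjusted p = 0.829), and it was -0.09 (-0.0938) without that array. Summed over 9 genes, endothelial markers came to 73.5 and 77.8 in cafeteria samples and to 78.8 to 79.6 in standard samples. Pecam1 and Tek differed by -0.24 ± 0.11 and -0.27 ± 0.24, and all 9 were lower in mean. Their part in the type IV values was not tested.

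The head-to-head pair Col4a5 and Col4a6 makes a further type IV network, found in smooth muscle and epithelial-type membranes, and it set the cafeteria arrays apart from each other. Col4a5 read 10.76 on cafeteria replicate 1 and 9.52 on cafeteria replicate 2, with 10.31, 10.29 and 10.26 on the standard arrays. Cafeteria replicate 1 was above and cafeteria replicate 2 below all standard arrays, which lay within 0.06 (0.055) of each other. The difference between diets was -0.15 ± 0.38 (limma, adjusted p = 0.865). Omitting cafeteria replicate 1 gave -0.76 and omitting cafeteria replicate 2 gave 0.47.

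Col4a6 read 7.09 on cafeteria replicate 1, 6.01 on cafeteria replicate 2, and 6.65, 6.81 and 6.75 on the standard arrays. The order of the arrays at both ends was that of Col4a5, and the dimmer Col4a6 probe set showed the same split, 7.11 against 5.28 with 6.24 to 6.53 in standard samples. The difference between diets was -0.19 ± 0.34 (limma, adjusted p = 0.801). As a deviation from the gene's mean, cafeteria replicate 1 stood at 0.53 for Col4a5 and 0.43 for Col4a6, and cafeteria replicate 2 at -0.71 and -0.65.

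The gap between the cafeteria arrays exceeded 1 log2 unit for 3 of the 29 collagen genes (10.3%), against 1.95% of all genes tested. The third was Col12a1, a collagen that sits on the surface of type I fibrils, with 9.12 and 8.06 in cafeteria samples and 8.59, 8.52 and 8.34 in standard samples. Col6a6, a long type VI chain, followed with 8.82 and 7.86 in cafeteria samples, while 8.85, 8.90 and 8.96 were read in standard samples. These genes are singled out after their values were seen. Cafeteria replicate 1 was above cafeteria replicate 2 in all 4, but this depends on where the list is cut. The next largest gap, 0.59 for Col15a1, went the other way. Col4a5 and Col4a6 make up 2 of the 4 type IV genes tested.

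Mesothelial markers, which label the cell layer that covers mesenteric fat, split the cafeteria arrays in the direction of Col4a5 and Col4a6. Over 5 genes their summed log2 level was 52.9 on cafeteria replicate 1 and 47.6 on cafeteria replicate 2, against 50.4 to 50.8 in standard samples, and all 5 passed the filter. Msln, the mesothelin gene, read 11.41 and 10.27 against 10.76, 10.76 and 10.67, and Lrrn4 read 10.92 and 9.90 against 10.67, 10.67 and 10.77. The part of mesothelial cells in the Col4a5, Col4a6, Col12a1 and Col6a6 values was not tested. The split was not particular to these markers. Among the collagen-related lists below, Fmod read 11.86 and 10.46 on the cafeteria arrays and P4ha3 9.39 and 8.27. Others split the opposite way, such as Itga1, at 9.12 and 10.07. Fmod, P4ha3 and Itga1 were picked after their values were seen. The smooth muscle list came to 83.9 and 83.7 on the cafeteria arrays, but its members differed. Acta2 read 8.23 and 8.45 there and Myh11 9.70 and 9.79, whereas Cnn1, at 8.04 and 6.43, and Des, at 8.97 and 7.83, were higher on cafeteria replicate 1 by more than 1 log2 unit. Cnn1 and Des were picked after their values were seen, and the part of smooth muscle cells was not tested.

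**Figure D3:**
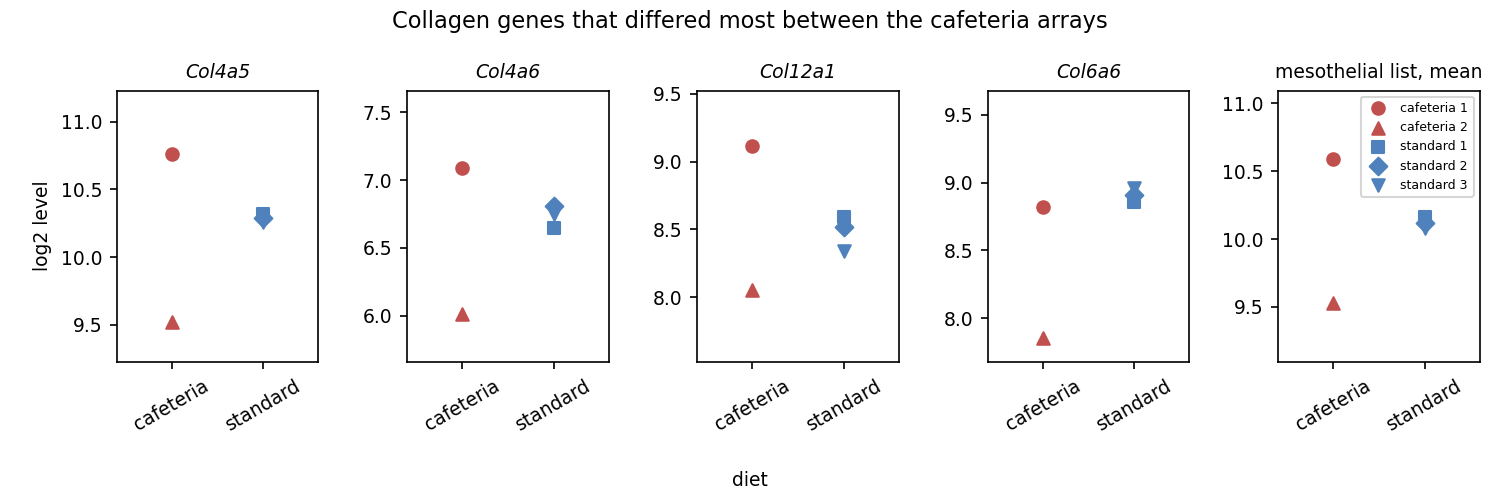
Log2 levels (vertical axes, all spanning the same range) of Col4a5, Col4a6, Col12a1 and Col6a6, and the mean of 5 mesothelial markers, on the 2 cafeteria and 3 standard arrays. In each panel cafeteria replicate 1 lies far above cafeteria replicate 2, with gaps of 0.97 to 1.23 for the 4 genes, while the standard arrays lie close together.

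Among the other collagens, 15 of 17 had a higher mean in cafeteria samples, with a median difference of 0.20 and a range of -0.57 to 1.54. The largest difference of any collagen gene belonged to Col8a1, a short-chain network-forming collagen known from the vessel wall and the cornea. It read 7.81 and 7.88 in cafeteria samples and 6.64, 5.99 and 6.29 in standard samples. The cafeteria arrays lay more than 1 log2 unit above every standard array. The difference was 1.54 ± 0.21, or 2.91-fold, with a 95% interval of 0.99 to 2.09. Adjusted over the whole array it stayed above the threshold (limma, unadjusted p = 0.00107, adjusted p = 0.222). A two-sided exact permutation test returned 0.1, the smallest p that 2 against 3 samples allow. Leaving out any 1 array kept it between 1.38 and 1.71. Its partner chain Col8a2 read 8.05 and 7.84 against 7.62, 7.71 and 7.92, with overlap, and differed by 0.20 ± 0.12.

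Col7a1, the collagen of the anchoring fibrils that tie epithelial basement membranes to the tissue beneath, read 5.70 and 5.64 in cafeteria samples and 5.25, 5.09 and 4.84 in standard samples. All 5 levels lay above the filter level, and the diets did not overlap. The difference was 0.61 ± 0.14, or 1.53-fold (limma, unadjusted p = 0.00826, adjusted p = 0.276), and ran from 0.50 to 0.71 when 1 array was left out. Col17a1, a transmembrane collagen of epithelial attachment plaques, read 4.75 and 4.81 against 4.46, 4.68 and 4.67, a difference of 0.18 ± 0.09 close to the filter. Col23a1, another transmembrane collagen, differed by 0.25 ± 0.14, with only cafeteria replicate 1, at 4.97, above the standard arrays, and by 0.04 (0.0413) without it.

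Type VI collagen forms beaded filaments around fat cells from chains encoded by Col6a1, Col6a2 and Col6a3. Col6a1 read 11.86 and 11.48 in cafeteria samples and 11.66, 11.70 and 11.57 in standard samples, and the diets overlapped, with a difference of 0.03 ± 0.13 (0.0272). That sign turned to -0.0035 after quantile normalization, to -0.16 without cafeteria replicate 1 and to -0.01 (-0.0112) without standard replicate 3. Col6a2 read 11.16 and 10.91 against 10.40, 10.84 and 10.84, without overlap. It differed by 0.34 ± 0.18 (limma, adjusted p = 0.489) and by 0.20 without standard replicate 1, its lowest array. The dimmer Col6a2 probe set gave 0.17 ± 0.10 with overlap, as cafeteria replicate 2 and standard replicates 2 and 3 all read 6.12.

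Col6a3, whose end fragment is the signalling peptide endotrophin, read 11.05 and 11.39 against 10.86, 11.05 and 11.05. Only cafeteria replicate 2 was above the standard range, and the difference of 0.23 ± 0.13 was 0.06 (0.0607) without it and 0.40 without cafeteria replicate 1. The remaining chains had lower means: Col6a6 differed by -0.57 ± 0.30 (limma, adjusted p = 0.493) and was the 1 collagen gene with both cafeteria arrays below all standard arrays, though cafeteria replicate 1, at 8.82, lay close to standard replicate 1, at 8.85. The Col6a6 difference was -1.05 with cafeteria replicate 1 left out and -0.08 (-0.0826) with cafeteria replicate 2 left out. Col6a5 read 5.62 in both cafeteria samples and 6.25, 5.62 and 5.42 in standard samples, a difference of -0.15 ± 0.27 that turned to 0.10 (0.0957) without standard replicate 1. Thus the type VI chains had a median of 0.03 (0.0272), with 3 higher and 2 lower means.

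Col15a1 and Col18a1 encode collagens that bridge basement membranes and the fibres around them, and the end fragment of the latter is endostatin. Col15a1 read 11.07 and 11.66 in cafeteria samples against 11.05, 11.09 and 11.22. Cafeteria replicate 2 alone stood above the standard arrays, so the difference of 0.24 ± 0.19 became 0.54 without cafeteria replicate 1 and -0.05 (-0.0493) without cafeteria replicate 2. Col18a1 read 9.05 and 9.11 against 8.80, 9.01 and 8.79, without overlap. Its difference was 0.21 ± 0.09 (limma, adjusted p = 0.438), and the second probe set gave 0.20 ± 0.07, likewise without overlap.

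Collagens that attach to fibrils differed by 0.05 (0.0459) to 0.29, and all 4 tested overlapped between diets. Again, 4 genes are too few to set against the 14.7% of all genes above and 14.7% below without overlap. Col14a1 read 10.997 and 10.76 against 10.79, 10.36 and 10.60 and differed by 0.29 ± 0.16. Col12a1 differed by 0.10 ± 0.34, Col16a1 by 0.05 ± 0.06 (0.0459) and Col9a2 by 0.08 ± 0.10 (0.0801). Without cafeteria replicate 1 these 3 differences turned to -0.43, -0.01 (-0.0061) and -0.0038. The remaining gene, Col26a1, differed by 0.06 ± 0.11 (0.0645) near the filter, and by -0.03 (-0.0254) without standard replicate 1.

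**Figure D4:**
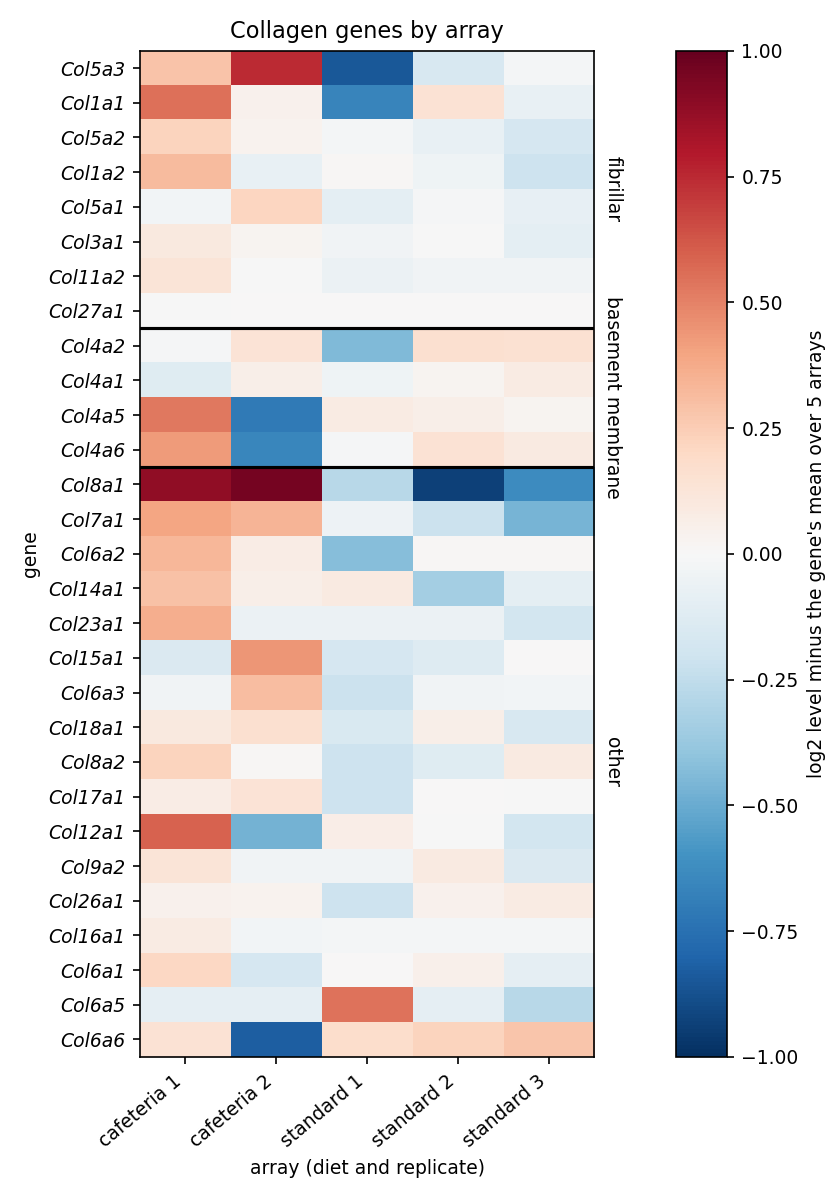
Log2 level minus the gene's mean over the 5 arrays (colour, red above and blue below) for the 29 collagen genes tested (rows, grouped by class) on each array (columns). Col8a1 is red on both cafeteria arrays, whereas Col4a5 and Col4a6 are red on cafeteria replicate 1 and blue on cafeteria replicate 2.

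Compared by class, fibrillar and other collagens had medians of 0.18 and 0.20, and type IV collagens -0.10. As the median deviation from each gene's mean, the fibrillar class stood at 0.18 and 0.03 (0.0328) on the cafeteria arrays and at -0.05 (-0.0482), -0.02 (-0.0236) and -0.08 (-0.0766) on the standard arrays. The other class stood at 0.14 and 0.03 (0.0345) against -0.06 (-0.06), -0.02 (-0.0186) and -0.09 (-0.0877). In both, the cafeteria arrays were above the standard arrays, with cafeteria replicate 1 the higher. The type IV class stood at 0.21 and -0.30 against -0.03 (-0.0297), 0.10 and 0.08 (0.0841), so the cafeteria arrays fell on both sides. The fibrillar minus type IV difference was -0.03 (-0.0326) and 0.33 on the cafeteria arrays and -0.16 to -0.02 (-0.0184) on the standard arrays. Cafeteria replicate 1 thus lay inside the standard range. Whether the classes differed was not tested, since the genes were chosen with results known. The type IV median was -0.34 without cafeteria replicate 1, 0.19 without cafeteria replicate 2, and 0.03 (0.0263) with Col15a1 and Col18a1 counted in that class. The fibrillar and other medians became 0.10 (0.0981) and 0.09 (0.0908) without cafeteria replicate 1, and 0.11 and 0.10 with no filter.

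**Figure D5:**
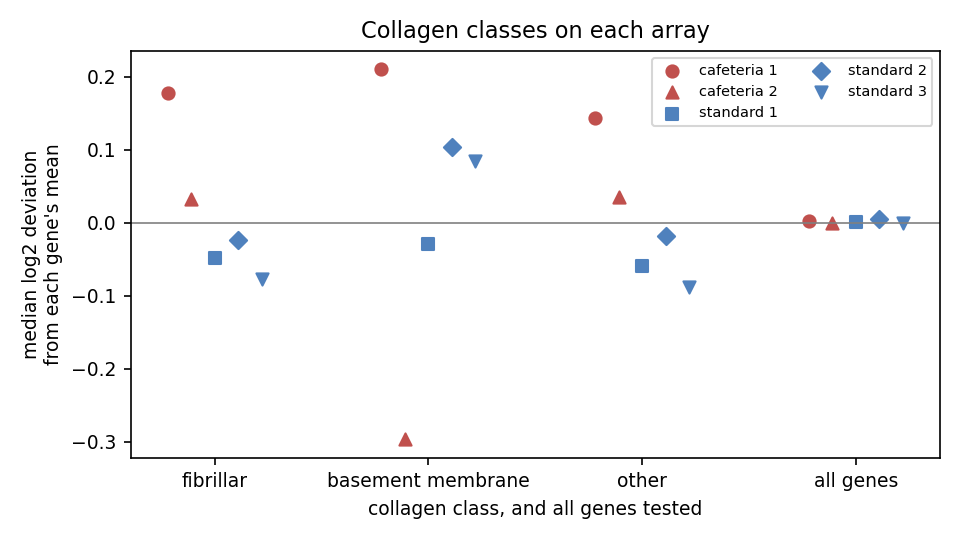
Median deviation from each gene's mean (log2, vertical axis) of fibrillar, basement membrane and other collagens and of all genes tested, 1 point per array. For fibrillar and other collagens both cafeteria arrays lie above the standard arrays, for basement membrane collagens they lie at 0.21 and -0.30, and for all genes the points lie close to 0.

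The proteins that build, cross-link, bind and degrade collagen were read from 7 lists with 87 genes on the array, of which 81 passed the filter. None was called after adjustment for the whole array (limma, smallest adjusted p = 0.253). At an unadjusted p under 0.05, 8 were higher (9.88%, against 6.73% of all genes) and 2 lower (2.47%, against 6.88%), and 44 had a higher and 36 a lower mean, with a median of 0.04 (0.0352). Both cafeteria arrays lay above the standard arrays for 11 of 81 (13.6%, against 14.7% of all genes) and below them for 8 (9.88%, against 14.7%). Neither of the last 2 shares is above that of all genes. In place of 10 pathway genes at an unadjusted p under 0.05 (12.3%, against 13.6% of all genes), there were 5 without standard replicate 1 (6.17% against 9.88%). There were 20 without cafeteria replicate 1 (24.7% against 20.8%), of which 14 were lower, and 20 without cafeteria replicate 2 (24.7% against 15.6%), of which 17 were higher.

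Folding and hydroxylation enzymes had a median of 0.05 (0.0509), with 12 of 19 higher in mean and 6 lower. Plod1, a lysyl hydroxylase that prepares chains for cross-linking, read 9.76 and 9.91 in cafeteria samples and 9.34, 9.52 and 9.41 in standard samples, without overlap. The difference was 0.41 ± 0.08 (limma, adjusted p = 0.267). Plod3 differed by 0.22 ± 0.08, and P3h4, from the prolyl hydroxylase family, by 0.12 ± 0.05. Among the 8 genes of procollagen cleavage and cross-linking, 4 were higher and 4 lower in mean. The cross-linking oxidases Lox and Loxl1 did not overlap between diets, with 10.08 and 9.49 against 9.13, 9.35 and 9.22 for Lox and 10.47 and 10.19 against 9.96, 9.98 and 9.66 for Loxl1. They differed by 0.56 ± 0.20 and 0.46 ± 0.14 (limma, adjusted p = 0.371 and 0.340). Pxdn, which cross-links type IV collagen, differed by -0.14 ± 0.07, with both cafeteria arrays below the standard ones.

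Genes of proteins that bind fibrils had 9 of 13 members higher in mean and a median of 0.11. Both cafeteria arrays lay above the standard ones for 4 of them, against 14.7% of all genes. As the median deviation from each gene's mean, the list stood at 0.26 on cafeteria replicate 1. On cafeteria replicate 2 it stood at -0.0062, inside the standard range of -0.17 to 0.0086. Sparc, a collagen-binding glycoprotein, read 13.10 and 13.24 against 12.77, 12.80 and 12.65. It differed by 0.43 ± 0.08. Postn, periostin, read 10.32 and 11.17 against 9.56, 9.75 and 9.49, a difference of 1.14 ± 0.27 or 2.20-fold (limma, adjusted p = 0.281). Ogn, a small proteoglycan, differed by 0.58 ± 0.17, also without overlap.

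Partners of type IV collagen in basement membranes had 9 of 15 higher and 6 lower in mean, with a median of 0.01 (0.0147). Nid1, which links laminin to type IV collagen, differed by 0.23 ± 0.08, Smoc1 by 0.48 ± 0.13 and the laminin chain gene Lamb3 by 0.29 ± 0.13. Collagen receptors had 6 of 8 lower in mean, with a median of -0.12. Cd44, a matrix receptor, differed by -0.49 ± 0.18 with both cafeteria arrays lower, the collagen integrin gene Itga11 by 0.38 ± 0.18 and the receptor kinase Ddr2 by -0.18 ± 0.10.

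Genes of collagen breakdown had 5 of 7 higher in mean, with a median of 0.05 (0.0471), and Mmp8, Mmp9, Mmp13 and Mmp16 were below the filter. Pepd, which frees proline from collagen fragments, differed by -0.16 ± 0.07, the fibroblast protease Fap by 0.37 ± 0.23 and the collagen-cleaving cathepsin Ctsk by -0.21 ± 0.17. TGF-beta, the best known inducer of collagen genes, had ligands, receptors and responding genes with 8 of 11 lower in mean and a median of -0.12. As the median deviation from each gene's mean, the list stood at 0.15 and -0.22 on the cafeteria arrays. The standard arrays stood at -0.02 (-0.0248), 0.03 (0.0279) and 0.05 (0.0489), so the cafeteria arrays fell on both sides. Tgfbr1 differed by -0.17 ± 0.05 and Tgfb2 by -0.64 ± 0.27, both without overlap, and Tgfb1 by -0.25 ± 0.15.

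Fibroblast and progenitor markers, from cells that make fibrillar collagen, had 4 of 7 higher in mean and a median of 0.05 (0.045). Their summed log2 level was 76.3 and 76.5 in cafeteria samples against 74.6 to 75.7 in standard samples. Pdgfra read 10.34 and 10.54 against 10.56, 10.55 and 10.54, and Dpt 12.51 and 12.60 against 12.23, 12.49 and 12.44. The largest differences of the list belonged to Mfap5 and Pi16, at 0.81 ± 0.14 and 0.78 ± 0.19, both chosen after their values were seen and both without overlap. Both cafeteria arrays lay above all standard arrays for all 8 adipocyte markers, against 14.7% of all genes. Summed over the list, these markers came to 97.6 and 98.8 against 93.3 to 94.9. Adipoq and Plin1 differed by 0.16 ± 0.09 and 0.33 ± 0.14. Schwann cell markers came to 19.5 and 19.2 against 18.4 to 18.7 over the 3 genes on the array, out of 6 listed. Mbp and Sox10 differed by 0.34 ± 0.07 and 0.27 ± 0.10. Sox10 lay close to the filter level of 4.28. Its mean was 4.31 over all arrays and 4.20 in standard samples, so it passed only through its cafeteria values. Macrophage markers came to 56.2 and 54.7 against 55.3 to 57.5 over 6 genes, with Cd68 and Cd163 differing by -0.45 ± 0.30 and -0.22 ± 0.17. The part of these cell types in the collagen values was not tested.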

How the data were processed

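Per the labels, total RNA from each of 5 fat samples was hybridised to 1 Affymetrix rat expression array. The authors deposited log2 values for each probe set. Per the submitters' processing notes these came from RMA in affy, with no version named. RMA equalises array distributions, which can hide a shift shared by most genes. Neither slide nor scan batch is named in the labels. Symbols came from GEO's platform annotation (20826 probe sets with 1 symbol, 436 with several, 9780 with none), and all 41 members were found in the RefSeq table.

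The 57 control probe sets were removed and those with a mean above the 30th percentile were kept (21729). Diets were compared by limma 3.58.1 in R 4.3.3 (lmFit, eBayes; 3 residual and 1.50 prior degrees of freedom), two-sided, with Benjamini-Hochberg adjustment over all probe sets, and checked on simulated data. P-values measure the spread between these samples. Lists and medians carry no test. Values on each array were given for 10 preset collagens and the 4 of smallest p per class, and pathway lists by their 3 of smallest p; other genes shown on each array were added after their values were seen. Members, classes and lists were chosen with earlier results of these data known. Motifs were searched in RefSeq windows (GRCr8). Figures used matplotlib 3.10.9.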

Additional observations from a re-analysis of the deposited data

How the results depend on the processing

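No collagen or pathway gene passed an adjusted p of 0.05 under any alternative that carried a test. Counting the replicate block but not the array omissions, 193 of 196 values of the 18 collagen genes followed kept their direction. The exceptions were Col6a1, at -0.0035 after quantile normalization and -0.011 with the replicate block, and Col4a1, at 0.08 (0.0825) with probe sets averaged. Only standard replicate 3 carries the number 3, so the block gave the same estimates as leaving out that array. Its Col6a1 reversal therefore repeats that omission and is no separate check. Many of the 196 directions were fixed in advance. The filters, the variance settings other than array weights, and leaving out cross-hybridizing probe sets kept each estimate as it was. With no filter, 5 collagen genes had an unadjusted p under 0.05 and the fibrillar and other medians were 0.11 and 0.10. Averaging the probe sets of a gene gave 6 collagen genes, all 6 higher, and 6 pathway genes at that threshold. The cause was not tested. With no filter and with averaging, the share of all genes at that threshold was not taken, so these counts say nothing about collagen genes in particular. Leaving out 1 array at a time reversed 7 of 90 gene values and gave 3 to 9 collagen genes (3 to 9 higher) and 5 to 20 pathway genes at that threshold, where the smaller fit has fewer samples. The medians ran from 0.10 (0.0981) to 0.24 for fibrillar, from -0.34 to 0.19 for type IV and from 0.09 (0.0908) to 0.21 for other collagens. Ranges over these omissions were -0.05 (-0.0493) to 0.54 for Col15a1, -0.14 to 0.04 (0.0369) for Col4a1, -0.09 (-0.0938) to 0.21 for Col4a2, -0.76 to 0.47 for Col4a5, -0.73 to 0.36 for Col4a6 and -0.16 to 0.21 for Col6a1. Added after seeing the data, the count of collagen genes with the cafeteria arrays above the standard arrays ran from 10 to 11 with 1 standard array left out. The share of all genes was then 18.3% to 18.7%, against 14.7% with all arrays. Leaving out an array can only keep or raise such a count, so its rise is no check of the result. The labels do not say whether the replicate numbers pair animals, so the numbers were not taken as pairs. Same-numbered samples correlated at 0.08 (0.079) and -0.04 (-0.0365) in their deviations from the diet means. The deviations of the cafeteria arrays are mirror images of each other, so these correlations cannot decide whether the samples were paired. With the replicate block, 3 collagen genes and 7 pathway genes had an unadjusted p under 0.05 and 0 passed the adjusted threshold. The share of all genes was not taken for that setting either. Precision is bounded by the small number of arrays.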

Other observations

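Exactly equal values on different arrays occurred among collagen genes as among all genes. Of the 29 tested, 9 had the same value on at least 2 arrays, against 5028 of 11509 genes, and 5 had it on at least 2 standard arrays, against 2645 genes. Col27a1 was equal on all 3 standard arrays, as were 365 of all genes tested (3.17%). Col19a1, below the filter, read 3.65 on all 5 arrays. Equal values make the spread between samples small for these genes.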
